A study of Mus musculus with 6 samples.

Results

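The 31 genes described here encode ion channels of the heart muscle cell, their auxiliary subunits, parts of the sodium pump and the main ventricular gap junction protein. They come from a given list and were read from probe sets (sets of short probes for 1 transcript) that have exactly 1 gene symbol. Each gene was represented by its brightest probe set, by the mean of the 6 arrays. All 31 were measured, among 18193 genes in all. They comprised 2 genes of sodium channels, 5 of calcium channels, 17 of potassium channels and 7 of pumps, junctions and other channels.

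The study measured mRNA of the ventricular apex of the heart in transgenic mice for PR-M, a human progesterone receptor of the mitochondrion, on Affymetrix Mouse Genome 430 2.0 arrays. One group of 3 samples is labelled PR-M expressing and the other group of 3 PR-M non-expressing. Both received 2.5 mg progesterone in oil under the skin for 19 to 21 days, so no sample shows the heart without the hormone. The labels give no strain, sex, age, transgene promoter or founder line, and do not say whether the mice of the non-expressing group carry the transgene. They also do not state that the samples of a group are separate animals, so p-values reflect only how these samples vary, which may be technical.

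The cardiac action potential is shaped by a sequence of currents. Sodium channels carry its upstroke, L-type calcium channels admit the calcium that starts contraction, and several kinds of potassium channel bring the membrane back to rest. Mouse ventricle repolarises mainly through fast transient outward and other voltage-gated potassium currents, while inward rectifiers hold the resting potential, the sodium pump keeps the ion gradients, and gap junctions pass the current from cell to cell.

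None of the 31 genes passed the test after adjustment. The test was limma's moderated linear model with Benjamini-Hochberg adjustment over 18193 genes and a threshold of 0.05, and 0.0660% of all genes passed it. The lowest adjusted p among the channel genes was 0.166, for Cacna1h. At an unadjusted p under 0.05 there were 8 of the 31 genes (25.8%), against 11.4% of all genes. Of these 8, 5 were higher in the expressing group (Scn7a, Cacna1h, Kcnd3, Kcnh2 and Trpm4), a direction and p that 4.85% of all genes had, and 3 were lower (Scn4b, Kcnj2 and Kcnj8), against 6.56% of all genes. The 3 expressing arrays lay wholly above or below the 3 non-expressing arrays in 10 of the 31 genes (32.3%), against 19.0% of all genes. They lay above in 6 of them, against 8.16% of all genes, and below in 4, against 10.8%. Differences are given as expressing minus non-expressing on the log2 scale, with the moderated standard error (SE). Their median was 0.09 over the channel genes and -0.02 over all genes. Of the 31, 18 were positive (58.1%), against 44% of all genes. The 31 genes were chosen with earlier results of these data known, so these shares are a description.

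**Figure D1:**
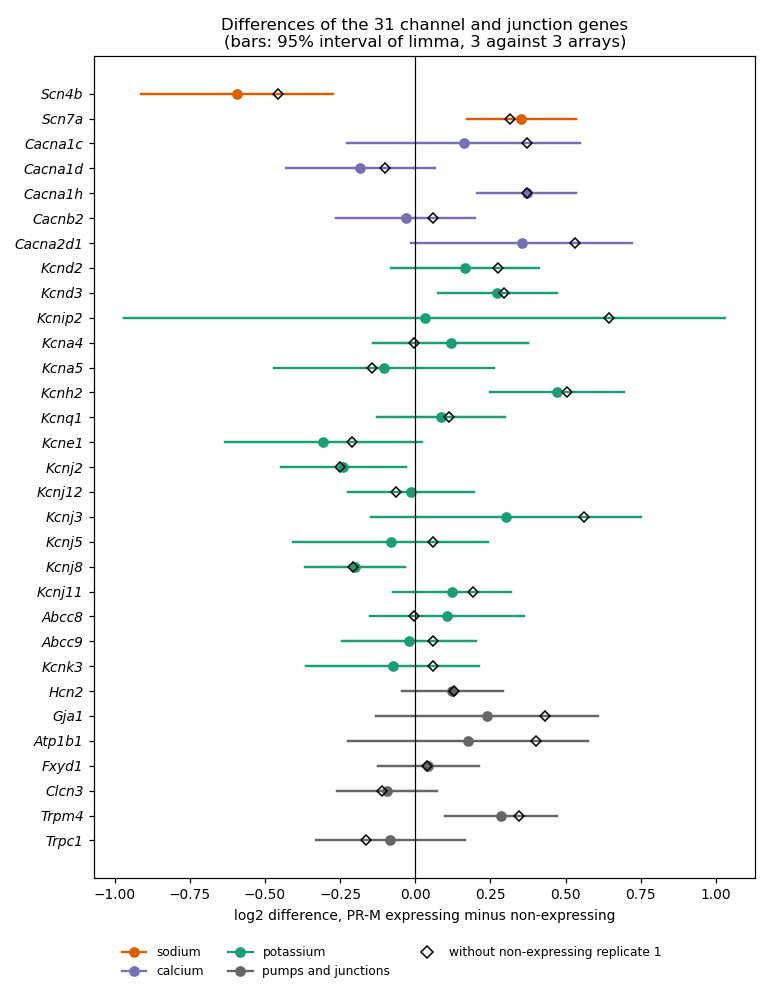
The horizontal axis is the log2 difference of each of the 31 genes, PR-M expressing minus non-expressing, with the 95% interval of limma as a bar (3 against 3 arrays) and the colour giving the current. Open diamonds give the difference without non-expressing replicate 1, and Kcnip2 has both the widest bar, from -0.97 to 1.03, and a diamond far from its point, at 0.65.

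The differences were small. For 24 of the 31 genes the 95% interval lay inside a change of 1.5-fold in either direction, and for the other 7 (Scn4b, Cacna2d1, Kcnip2, Kcnh2, Kcne1, Kcnj3 and Gja1) it reached beyond it on at least 1 side. The narrowest estimates were those of Hcn2, Fxyd1, Kcnj8, Cacna1h and Clcn3, each with an SE of 0.07. The number of arrays limits this precision.

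The arrays were alike as a whole, with Pearson correlations of 0.992 to 0.997 over 45037 probe sets, and non-expressing replicate 1 was the least like its own group. It has a title prefix of its own, non-expressing replicates 2 and 3 share another and the expressing samples a further one, so no prefix holds both groups and prefix and group cannot be told apart. Control probe sets of 18S ribosomal RNA were at 8.07 to 8.50 in the expressing and 9.57 to 10.3 in the non-expressing arrays, and the excess of the 3′ over the 5′ probe set of beta-actin, which bears on RNA quality, was 1.20 to 1.28 and 1.30 to 1.43. Neither overlapped (two-sided exact permutation p = 0.1 for each, the lowest possible with 3 arrays against 3), while the same excess for Gapdh did, at 0.10 to 0.22 and 0.16 to 0.30 (exact p = 0.3). Ventricular muscle markers, among them Myh6, Tnnt2 and Myl2, had a mean log2 value of 14.1 to 14.2 in every array. All but Ryr2 lay near the highest value of any probe set, 14.77, so their evenness does not show an equal share of muscle. Ryr2 was at 12.2, 11.9 and 12.2 in the expressing and at 12.3, 11.4 and 11.5 in the non-expressing arrays. Of the 8 atrial muscle markers 5 were higher in the expressing arrays without overlap, a direction and separation that 8.16% of all genes had. The mean value of the 8 was 8.24 to 9.38 in the expressing and 7.01 to 7.14 in the non-expressing arrays. Of the 8 fibroblast markers 5 were higher without overlap (means of 10.64 to 10.84 and 10.45 to 10.52), and of the 6 measured Schwann cell and nerve markers 3 were (7.61 to 7.65 and 7.35 to 7.38). Those 3 were Mbp, Cdh19 and Sox10, with differences of 0.88, 0.50 and 0.05, while S100b and Prnp differed by 0.004 and 2.3e-04. Of the 8 endothelial markers 2 were higher without overlap (means of 9.11 to 9.16 and 8.93 to 9.03). The differences of Kdr and Tie1 were negative, -0.11 and -0.07, and those of the other 6 positive. Of the 6 conduction system markers Tbx3 and Shox2 were higher and Tbx18 lower without overlap (means of 6.72 to 6.82 and 6.51 to 6.67). Among all genes 10.8% were lower without overlap. The means of the smooth muscle, adipocyte, macrophage and red cell lists overlapped. No marker is at 0 on this scale. The part of these differences in the results below was not tested, and in whole tissue fewer cells of a type and less RNA per cell cannot be told apart.

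The regulatory sequence just upstream is shown for 3 of the 8 genes with the lowest p, since these are the genes on which the description turns: both sodium channel genes, whose differences have opposite signs, and Kcnh2, the largest positive difference. Each is the 250 bases before the RefSeq start on GRCm38.p6, 5′ to 3′ along the gene. Capitals mark 5 motifs that were searched on both strands. A half-site of steroid receptors was searched as AGAACA. The motif of the cardiac factors of the GATA family was AGATAA. The motif of the TEAD family, which is used in many muscle genes, was CATTCC. The box bound by the basal machinery in many promoters was TATAAA. The motif of the Sp family, called the GC box, was GGGCGG.
Scn4b (chr9:45138374-45138623, plus strand): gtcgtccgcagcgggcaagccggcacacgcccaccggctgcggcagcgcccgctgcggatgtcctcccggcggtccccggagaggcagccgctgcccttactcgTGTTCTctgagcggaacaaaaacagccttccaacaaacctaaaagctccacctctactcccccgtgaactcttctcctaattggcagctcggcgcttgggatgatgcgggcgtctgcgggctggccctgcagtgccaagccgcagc
Scn7a (chr2:66784911-66785160, minus strand): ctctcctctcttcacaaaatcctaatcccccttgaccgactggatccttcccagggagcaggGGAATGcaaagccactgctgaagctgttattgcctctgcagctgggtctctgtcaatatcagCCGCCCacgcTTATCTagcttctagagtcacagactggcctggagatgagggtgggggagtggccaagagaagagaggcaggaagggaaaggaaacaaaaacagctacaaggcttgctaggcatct
Kcnh2 (chr5:24329592-24329841, minus strand): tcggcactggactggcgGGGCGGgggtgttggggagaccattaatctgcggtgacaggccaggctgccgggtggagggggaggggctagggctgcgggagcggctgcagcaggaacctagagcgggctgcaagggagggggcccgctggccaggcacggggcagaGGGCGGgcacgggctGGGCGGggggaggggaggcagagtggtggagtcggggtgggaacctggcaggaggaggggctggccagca
In the Scn4b window the capitals are a steroid receptor half-site whose first base lies at -146 from the start. In that of Scn7a they are, in order, a TEAD motif at -188, a GC box at -126 and a GATA motif at -116. In that of Kcnh2 they are GC boxes at -233, -85 and -70. The windows of Kcnd3 and Kcnj8, not shown, held none of the 5 motifs. That of Kcnj2, not shown, held GC boxes at -102 and -51, and Cacna1h and Trpm4 had no entry in the RefSeq table. No motif shared a base with another in these windows. Of 20 channel genes with exactly 1 start in the RefSeq table, 1 window held AGAACA, against 16.1% of 32851 windows of the same length, 2 held AGATAA (9.99%), 3 held CATTCC (12.6%), 0 held TATAAA (12.4%) and 12 held GGGCGG (32.7%). These windows were rich in G and C, with a median of 64.0% over the 20 genes against 52.4% over all windows. The 32851 windows include those of genes with more than 1 start, which were left out of the 20, so the sets compared are unlike. A match is a run of letters and does not show that a factor binds there.

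Both sodium channel genes differed between the groups without overlap, in opposite directions, a separation that 19.0% of all genes had. Scn4b, an auxiliary beta subunit that shapes the opening and closing of the cardiac sodium channel, was at 8.92, 8.59 and 8.70 in expressing replicates 1 to 3 and at 9.60, 9.30 and 9.09 in non-expressing replicates 1 to 3. Every expressing array was below every non-expressing one, with a gap of 0.17 between the groups. The difference was -0.59 (SE 0.14), a 1.51-fold lower level, with an unadjusted p of 0.00250 and an adjusted p of 0.213 in limma. It was the largest negative difference of the 31 genes, and it ranged from -0.71 to -0.46 when any 1 array was left out. Only 1 probe set with a single gene symbol reads Scn4b, so no further probe set checks it.

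Scn7a encodes an atypical sodium channel that senses sodium and is known from glia and Schwann cells. It was at 8.97, 9.05 and 9.09 in the expressing and at 8.61, 8.69 and 8.76 in the non-expressing arrays. The groups were separate by 0.22, each with a spread of no more than 0.15. The difference was 0.35 (SE 0.08), or 1.28-fold higher, at an unadjusted p of 0.00187 and an adjusted p of 0.208 in limma. A second probe set agreed in size, at 8.67, 8.71 and 8.64 against 8.23, 8.43 and 8.25, with a difference of 0.37 (adjusted p 0.184 over 45037 probe sets, limma). The dimmest of its 3 probe sets differed by 0.10 and overlapped. Scn7a differed in the same direction as the means of the fibroblast and Schwann cell lists given above, whose part was not tested.

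Of the 5 calcium channel genes 3 were higher and 2 lower in the expressing group, with a median difference of 0.16. The groups did not overlap in 1 of them (20%), against 19.0% of all genes. That gene was Cacna1h, the pore of a T-type channel that opens at low voltage and is prominent in the fetal and stressed heart. It was at 4.75, 4.75 and 4.74 in the expressing and at 4.38, 4.42 and 4.33 in the non-expressing arrays. The values were tight within each group, and the difference of 0.37 (SE 0.07) had the lowest p of all 31 genes, 7.39e-04 before adjustment (adjusted p 0.166, limma). All 6 values lay below the array medians of 5.77 to 5.78, in the range where background weighs most, and a second, dimmer probe set differed by -0.05 with overlap. With the mean of both probe sets the difference was 0.16 (adjusted p 0.351), and over all alternative settings the adjusted p lay between 0.0891 and 0.437.

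Cacna2d1, an auxiliary subunit that brings the L-type channel to the surface, was at 10.77, 10.61 and 10.37 in the expressing and at 10.59, 10.03 and 10.08 in the non-expressing arrays. Non-expressing replicate 1 lay among the expressing arrays, and the difference was 0.35 (SE 0.16, unadjusted p 0.0579, adjusted p 0.452 in limma). Its 5 probe sets disagreed, from 0.35 for the brightest to -0.28 for one at about 7.7, whose groups did not overlap in the opposite direction (unadjusted p 0.0429), and with their mean the difference was 0.09. Cacna1c, the pore of the L-type channel and the main route of calcium entry, was at 9.64, 9.43 and 9.69 against 9.84, 9.18 and 9.25. The group values of Cacna1c interleaved, with a difference of 0.16 (SE 0.17), and its second probe set differed by 0.31. Cacnb2, the beta subunit of that channel, differed by -0.03 with a 95% interval from -0.26 to 0.20. Cacna1d, the pore of an L-type channel of atria and nodes, was dim and differed by -0.18 (adjusted p 0.548).

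The pores of the fast transient outward current are Kcnd2 and Kcnd3, and Kcnip2 is the calcium-binding subunit that sets their number at the surface. Kcnd3 was at 7.45, 7.44 and 7.56 in the expressing and at 7.26, 7.09 and 7.29 in the non-expressing arrays. The groups were separate by 0.15, and the difference was 0.27 (SE 0.09), or 1.21-fold, with an unadjusted p of 0.0125 and an adjusted p of 0.340 in limma. A second Kcnd3 probe set differed by 0.30 and a further one by -0.23, and with the mean of all 4 the difference was 0.07. Kcnd2 overlapped, at 9.25, 9.36 and 9.35 against 9.38, 8.98 and 9.10, with a difference of 0.17 (SE 0.11).

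Kcnip2 had the widest spread. It was at 9.76, 9.41 and 9.85 in the expressing arrays and at 10.9, 9.09 and 8.97 in the non-expressing ones. Non-expressing replicate 1 was the highest of all 6 arrays and its group mates the lowest, so the difference of 0.03 (SE 0.44) has an interval from -0.97 to 1.03. The spread over the 6 arrays was larger than that of 99.7% of genes. A second Kcnip2 probe set had the same shape, at 6.46 in non-expressing replicate 1 and 4.57 to 5.25 in the other 5 arrays, while the remaining probe set was flat at 5.61 to 5.76. Without non-expressing replicate 1 the difference was 0.65 (SE 0.14, unadjusted p 0.00185, adjusted p 0.131, the lowest over its alternatives, which reached 0.998), and without either of the other non-expressing arrays it was negative, at -0.24 without replicate 2 and -0.31 without replicate 3. Kcna4, the pore of the slow transient outward current, was dim and differed by 0.12 (adjusted p 0.722).

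Kcnh2, the pore of the rapid delayed rectifier, had the largest positive difference of the 31 genes. It was at 9.67, 9.53 and 9.58 in the expressing and at 9.19, 8.94 and 9.24 in the non-expressing arrays. The groups were separate by 0.29, and the difference was 0.47 (SE 0.10), or 1.39-fold, with a 95% interval from 0.25 to 0.70. Its unadjusted p was 0.00114 and its adjusted p 0.184 in limma, and 1.35% of all genes had a larger difference in either direction. It stayed between 0.38 and 0.53 with any 1 array left out. Its single probe set has no second to set beside it.

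Both subunits of the slow delayed rectifier overlapped between the groups. Kcnq1, its pore, differed by 0.09 with an interval from -0.13 to 0.30. Kcne1, its auxiliary subunit, was at 5.52, 5.08 and 5.45 against 5.84, 5.43 and 5.69, near the array medians, with a difference of -0.31 (SE 0.14, adjusted p 0.459). Kcna5, the pore of an ultrarapid potassium current, differed by -0.10, and expressing replicate 3 at 8.99 was the highest of its 6 values while the other expressing arrays, at 8.38 and 8.37, were the lowest.

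Kcnj2 and Kcnj12 encode pores of the current that holds the resting potential. The Kcnj2 probe set was at 3.46, 3.32 and 3.21 in the expressing and at 3.54, 3.51 and 3.65 in the non-expressing arrays. The groups were separate by 0.05, all values lay far below the array medians, and the difference was -0.24 (SE 0.09, unadjusted p 0.0283, adjusted p 0.385 in limma). A probe set so dim says little of the level of its transcript. Kcnj12 differed by -0.02 with an interval from -0.22 to 0.19.

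Kcnj3 and Kcnj5 encode the channel opened by acetylcholine, best known from atria and nodes. Kcnj3 was at 7.94, 7.83 and 7.73 in the expressing and at 8.05, 7.21 and 7.33 in the non-expressing arrays, with a difference of 0.30 (SE 0.20, adjusted p 0.585). Again non-expressing replicate 1 was the highest of all 6 arrays and replicates 2 and 3 the lowest, and its other probe sets differed by 0.48, -0.18 and 0.05, each with overlap. With the mean of all 4 the Kcnj3 difference was 0.16. Kcnj5 differed by -0.08 (adjusted p 0.861). The atrial markers Sln, Myl4 and Myl7 were higher in all 3 expressing arrays, with differences of 3.89, 3.60 and 3.45. Of the other atrial markers Dkk3 (0.83) and Tbx5 (0.27) were also higher without overlap. Nppa (1.02), Stard10 (0.10) and Bmp10 (-0.03) overlapped. The part of the atrial markers in the Kcnj3 and Kcnj5 values was not tested.

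Kcnj8, a pore of ATP-sensitive channels that is abundant in pericytes and smooth muscle, was at 8.98, 8.91 and 8.94 in the expressing and at 9.13, 9.12 and 9.18 in the non-expressing arrays. The groups were separate by 0.14, and the difference was -0.20 (SE 0.07), or 1.15-fold lower, with an unadjusted p of 0.0230 and an adjusted p of 0.368 in limma. Its sign and size were steady, from -0.22 to -0.18 with any 1 array left out. None of the 8 smooth muscle and pericyte markers was without overlap, and their mean value was 9.17 to 9.48 in the expressing and 9.04 to 9.32 in the non-expressing arrays. Abcc9, the sulfonylurea receptor that pairs with these pores in muscle and pericytes, differed by -0.02 with an interval from -0.24 to 0.20. Its other probe sets disagreed in sign, at -0.22 and 0.09, each with overlap. Kcnj11, the pore in heart muscle cells, differed by 0.12, Abcc8, the other sulfonylurea receptor, by 0.10, and Kcnk3, which carries a background potassium current, by -0.08. The adjusted p of these 4 lay between 0.611 and 0.958.

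**Figure D2:**
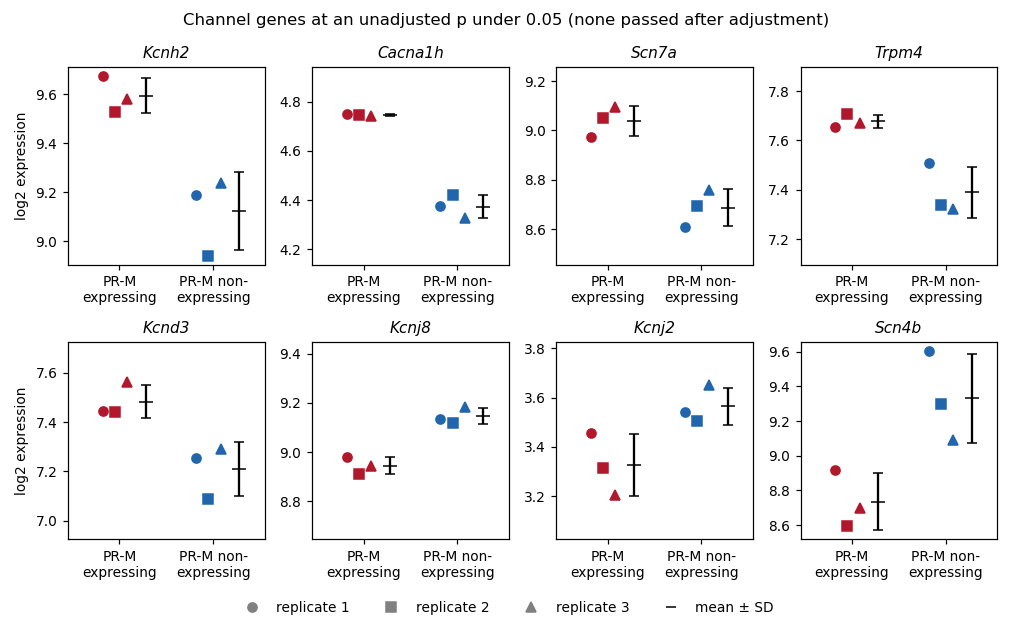
The vertical axes give the log2 expression value of each array for the 8 channel genes at an unadjusted p under 0.05, with 1 symbol per replicate and the mean ± SD of each group (n = 3). The groups are separate in every panel, by 0.05 for Kcnj2 up to 0.32 for Cacna1h, and the axes span different values.

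Of the 7 genes of pumps, junctions and other channels 5 were higher and 2 lower. The groups did not overlap in 3 of them (42.9%), against 19.0% of all genes. Trpm4, a cation channel that calcium opens from inside the cell, was at 7.66, 7.71 and 7.67 in the expressing and at 7.51, 7.34 and 7.32 in the non-expressing arrays. The groups were separate by 0.15, and the difference was 0.29 (SE 0.08), or 1.22-fold, with an unadjusted p of 0.00722 and an adjusted p of 0.309 in limma. Hcn2, a pacemaker channel that is also found in ventricle, was at 9.09, 9.15 and 9.13 against 9.02, 9.04 and 8.94. That separation was narrow, 0.05, and the difference was 0.12 (SE 0.07, unadjusted p 0.133).

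Clcn3, a chloride and proton exchanger of intracellular membranes, differed in sign between its probe sets. Its brightest probe set was lower in the expressing arrays, at 10.04, 10.01 and 10.06 against 10.10, 10.12 and 10.18, with a difference of -0.09 and a gap of 0.04. The other 4 probe sets were all higher, by 0.06 to 0.22, and 2 of them were without overlap in that direction. The brightest probe set carries the suffix _x_at, which marks probes that can also match other transcripts, and without such probe sets the difference was 0.10 (adjusted p 0.637, and 0.404 to 0.821 over all alternatives).

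Gja1, the connexin of ventricular gap junctions, was at 13.15, 13.11 and 13.07 in the expressing and at 13.26, 12.53 and 12.82 in the non-expressing arrays. Non-expressing replicate 1 was the highest of the 6 and the other non-expressing arrays the lowest, with a difference of 0.24 (SE 0.16, adjusted p 0.600). The 4 bright Gja1 probe sets differed by 0.24 to 0.41 and the 2 dim ones by -0.04 and -0.21. The probe set that stands for Gja1 also has the suffix _x_at, and without such probe sets the difference was 0.41 (adjusted p 0.460 in limma). Atp1b1, the beta subunit of the sodium pump, followed the same order, at 11.70, 11.50 and 11.57 against 11.87, 11.16 and 11.21, with a difference of 0.18 and all 5 probe sets between 0.12 and 0.18. Fxyd1, which encodes phospholemman, the small regulator of that pump, was the steadiest of the 31 genes at 12.8 to 12.9 in all 6 arrays (difference 0.04, interval from -0.12 to 0.21). Trpc1, a cation channel subunit, differed by -0.08 (adjusted p 0.807).

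Non-expressing replicate 1 stood apart in the channel genes more than in genes as a whole. It was the highest of the 6 arrays in 14 of the 31 genes (45.2%), against 23.7% of all genes, and non-expressing replicate 2 was the lowest in 14, against 16.8% of all genes. Its excess over the mean of non-expressing replicates 2 and 3 had a median of 0.18 over the channel genes and -0.01 over all genes. The excess was above 0.5 in 6 genes (19.4%), against 2.50% of all genes: Kcnip2 (1.84), Kcnj3 (0.78), Atp1b1 (0.68), Cacna1c (0.63), Gja1 (0.58) and Cacna2d1 (0.53). These 6 were picked out after their values were seen. Beside them in the same array Ryr2, the calcium release channel of heart muscle, was at 12.3 against 11.4 and 11.5 in its group mates, Nppa, the atrial natriuretic peptide gene, at 10.7 against 8.39 in each, and 18S ribosomal RNA at 10.3 against 9.76 and 9.57. Other markers of the lists of Ryr2 and Nppa differed less or in the other direction. The atrial markers Stard10 and Myl4 were lower there, at 8.66 against 9.53 and 9.70 and at 6.57 against 7.28 and 7.01. Myl7 and Dkk3 were above the mean of the group mates, by 0.22 and 0.15. Sln, Bmp10 and Tbx5 differed from it by -0.06, -0.05 and -0.30. The other ventricular markers differed from the mean of the group mates by -0.08 (Myl2) to 0.10 (Tnnt2). Their means of 13.9 (Ttn) to 14.7 (Myl2) lay near the highest value of any probe set, 14.77, which leaves little room for a higher level. Macrophage markers stood apart there too, with Cd68 at 8.82 against 7.13 and 6.86, Lyz2 at 11.5 against 10.8 and 10.6, and Cd163 the other way at 5.72 against 7.23 and 6.97. Of all 70 measured cell type markers 7 were more than 0.5 above the mean of the group mates in that array and 3 more than 0.5 below. Their part in the channel values was not tested.

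**Figure D3:**
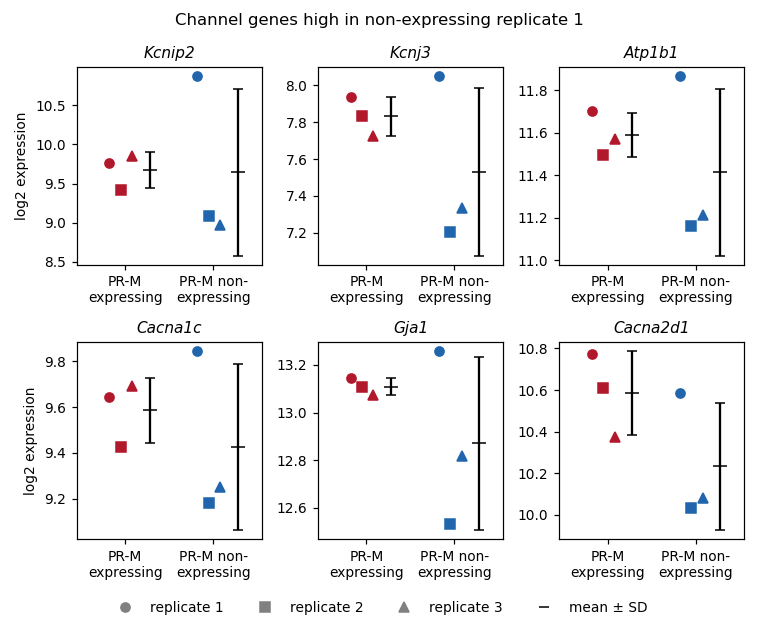
The vertical axes give the log2 expression value of each array for the 6 channel genes in which non-expressing replicate 1 exceeded the mean of its group mates by more than 0.5, with the mean ± SD of each group (n = 3). Non-expressing replicate 1 is the highest of the 6 arrays in every panel but that of Cacna2d1, while non-expressing replicates 2 and 3 lie below all 3 expressing arrays in all 6.

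Leaving out that array changed the description by over 1.5 times. Without it 16 of the 31 genes (51.6%) were at an unadjusted p under 0.05, against 14.4% of all genes, of which 13 were higher in the expressing group (6.35% of all genes) and 3 lower (8.05%). The groups of 3 and 2 arrays did not overlap in 19 genes (61.3%), against 35.3% of all genes. Still none passed after adjustment, and the lowest adjusted p was 0.101, for Kcnj3, with a difference of 0.56 (SE 0.09). Cacna2d1 then differed by 0.53, Gja1 by 0.43, Atp1b1 by 0.40 and Cacna1c by 0.37, with adjusted p of 0.143 to 0.190 in limma. These genes, Kcnj3 and Kcnip2 were picked because that array exceeded its group mates, so leaving it out had to raise their differences. In Kcnd2 and Kcnj11 that array also exceeded the mean of its group mates, by 0.33 and 0.21, and both joined the 16 when it was left out. The p of all these genes here, and their place in the counts, therefore add no support. The 8 genes at an unadjusted p under 0.05 with all arrays were also under it here, Scn4b at -0.46, Kcnh2 at 0.51 and Trpm4 at 0.35 among them. With any other array left out the number at an unadjusted p under 0.05 was 6 to 9, against 8.28 to 9.65% of all genes, and the number without overlap 10 to 14, against 27.3 to 30.2%.

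**Figure D4:**
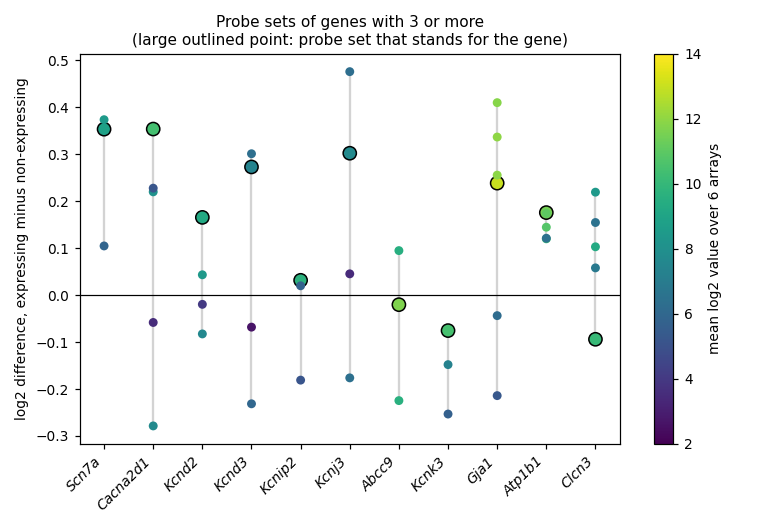
The vertical axis is the log2 difference, PR-M expressing minus non-expressing, of each probe set of the 11 channel genes with 3 or more, coloured by the mean log2 value over the 6 arrays, and the large outlined point is the probe set that stands for the gene. Bright probe sets of Gja1 and all of Atp1b1 lie close together above 0, while those of Cacna2d1, Kcnd3 and Kcnj3 lie on both sides of it.

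The 31 genes have 75 probe sets, and 21 genes have more than 1. Of the 44 probe sets that do not stand for their gene, 25 had the same sign as the one that does and 19 the opposite sign. None passed over 45037 probe sets, where 0.0133% of all did, with a lowest adjusted p of 0.184 (limma), and 4 were at an unadjusted p under 0.05, 9.09% against 12.2% of all probe sets. The groups were without overlap in 5 of the 44 (11.4%), against 18.6% of all probe sets.

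A wider list of 101 genes of the same currents, their relatives and their scaffolds was set beside the 31, and 86 were measured. None passed over all genes, 14 (16.3%) were at an unadjusted p under 0.05, 10 higher and 4 lower, and 16 (18.6%) were without overlap, shares to be read against 11.4% and 19.0% of all genes. The median difference was -0.02, that of all genes. Among 11 calcium channel genes Cacna2d2, a relative of Cacna2d1, had the largest difference, at 6.81, 7.25 and 6.83 in the expressing and 6.12, 6.17 and 6.01 in the non-expressing arrays (0.87, SE 0.12, adjusted p 0.0736 in limma). It passed where limma used a robust prior with an intensity trend (adjusted p 0.0406) and where arrays were weighted (0.0445), while over all alternatives its adjusted p reached 0.368. Cacna1g, the pore of another T-type channel, differed by 0.23 (adjusted p 0.598).

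Among 30 further potassium channel genes 9 were higher and 21 lower, with a median of -0.07. Kcnj14, an inward rectifier, was at 4.97, 5.38 and 5.25 against 5.71, 6.42 and 6.29, a difference of -0.94 (SE 0.18, adjusted p 0.167). It passed without non-expressing replicate 1 (-1.15, adjusted p 0.0432 in limma, the lowest over its alternatives, which reached 0.430). That array was the lowest of its group, so leaving it out had to enlarge the difference, and the pass adds no support. Its value and the expressing values of Kcnj14 lay below the array medians of 5.77 to 5.78. Kcnn1, a channel opened by calcium, differed by -0.39 (adjusted p 0.182). Of the 6 other connexin and pannexin genes Gjc1, a connexin of the conduction system, differed by 0.22 (adjusted p 0.353) and Gjb2 by 0.33 (0.512). Of 9 genes of the sodium pump and ion exchangers Slc4a2, an anion exchanger, differed by 0.23 (0.362) and Slc4a3, a further anion exchanger, by 0.36 with overlap (0.398). Of 10 scaffold genes Akap9, which anchors kinases at the slow delayed rectifier, differed by 0.42 (0.212) and Cdh2, the cadherin of the intercalated disc, by 0.23 (0.364). Of 13 chloride and other cation channel genes Clcn4 differed by 0.20 (0.405) and Clcn2 by -0.22 (0.484). Of 6 further sodium channel genes, all below the array medians, Scn1a differed by 0.17 (0.573) and Scn3b by -0.15 (0.585). Hcn3 was the 1 further pacemaker channel gene measured, with a difference of 0.05 (0.841).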

How the data were processed

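The authors' deposited values are on the log2 scale, with 1 value for every probe set on every array. Per the labels' protocols, 500 ng of Trizol-extracted total RNA was amplified, labelled with biotin and hybridised. RMA (background correction, normalization between arrays and probe summary) and Partek 6.6 are named per the submitters' processing notes, with settings not given in the sources used here. After such scaling a difference is relative to the rest of the array.

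After 64 control probe sets were set aside, a linear model per probe set (limma 3.58.1, R 4.3.3, eBayes with its default prior, two-sided) was fitted to 45037 probe sets. For genes, the probe set with the highest mean and exactly 1 symbol in the platform table was taken and p was adjusted over 18193 genes. Degrees of freedom were 4 residual and 4.48 from the prior. The fit was tested on simulated data with independent noise and no outlying array, which checks the computation and not the p-values of these arrays.

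The 31 genes, their order by current and the lists were chosen with earlier results of these data known. Values of every array are given for genes at an unadjusted p under 0.05 and for the 2 with the lowest p of each current, and in the wider list the 2 with the lowest p per group are named. Other array values were given after they were seen. Alternatives were a filter on dim probe sets, quantile, cyclic loess and median scaling, other priors, the title prefix as a random block (statmod 1.5.0), the mean of a gene's probe sets, no _x_at or _s_at probe sets, array weights and leaving out each array. Replicates were numbered in record order and pair no samples. Upstream sequences came from RefSeq on GRCm38.p6, where 24 of the 31 genes matched.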

Additional observations from a re-analysis of the deposited data

How the results depend on the processing

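Under 17 alternatives no channel gene passed after adjustment. Where all arrays were kept the count at an unadjusted p under 0.05 was 6 to 12 (8.31 to 15.0% of all genes), that without overlap 8 to 10 (18.5 to 21.7%) and the median difference 0.03 to 0.10. With 1 array left out they were 6 to 16, 10 to 19 and 0.04 to 0.11. The 16 (14.4% of all genes) and the 19 (35.3%) came from leaving out non-expressing replicate 1, and the other arrays gave at most 9 (8.28 to 9.65%) and 14 (27.3 to 30.2%). In the wider list 1 gene passed with a robust, trended prior and 1 with array weights, and 0 to 1 with 1 array left out. No other probe set of a channel gene passed. A prior from the genes alone, added after the data were seen, gave 8 genes at an unadjusted p under 0.05.

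Signs turned in 22 of 522 recomputed differences, in 11 genes whose difference was at most 0.12 in size. With all arrays kept these were Kcnip2 (-0.015 where the title prefix was a random block, -0.043 over the mean of its probe sets), Cacnb2 (0.016) and Abcc9 (0.0071) where arrays were weighted, Clcn3 (0.10 without _x_at and _s_at probe sets, 0.088 over the mean of its probe sets), and Kcna4 (-0.011) and Kcnj11 (-0.0023) over the mean of their probe sets. With 1 array left out Kcnip2 ranged from -0.31 to 0.65, Kcnj12 from -0.065 to 0.046, Abcc9 from -0.069 to 0.058, Cacnb2 from -0.13 to 0.057, Kcna4 from -0.0058 to 0.20, Kcnj5 from -0.25 to 0.059, Abcc8 from -0.0031 to 0.21, Kcnk3 from -0.18 to 0.058 and Kcnq1 from -0.0011 to 0.15. The filter on dim probe sets gave no value for 5 dim genes (Cacna1d, Cacna1h, Kcna4, Kcne1 and Kcnj2). No paired analysis was possible because the labels give the groups no shared replicate numbers. Genes below the array medians are limited by signal over background.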
